A study of Sus scrofa with 6 samples.

Results

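Pig embryo fibroblasts (PEF) were compared with pig amniotic fluid stem cells (PAFSC), the 2 samples of the series that the labels call somatic, out of 6 samples in all. The other 4 were induced pluripotent stem (iPS) lines: PS24, labelled positive for the surface antigens SSEA1, SSEA3 and SSEA4, 30AC5, positive for SSEA1, and iPF4-2 and iPSCs-w, positive for SSEA3 and SSEA4. Total RNA of each sample was labelled with biotin and hybridised to 1 Affymetrix Pig Genome Array, which measures each transcript with 1 or more probe sets. The labels give the same serum-containing DMEM for all cells and mouse feeder cells for the iPS lines, and they give no genetic change, treatment, age, passage or animal for PEF or PAFSC.

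Each somatic culture was therefore 1 array with no replicate, so no spread between cultures could be estimated, no test was made, and each value describes these 2 arrays and not the cell types. The comparison asks how far the 2 somatic reference samples of the series resemble each other. After 124 control and 64 reporter probe sets were left out, 23935 probe sets remained, and 10069 of them carried 1 gene symbol, for 6765 genes. Of these genes, 2261 had at least 2 probe sets and 4504 had a single one. A gene's value is the mean over its probe sets, and a gene was counted as higher on one array when its mean differed by at least 2 log2 units and all its probe sets lay on the same side.

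Fibroblasts are the cells that secrete and remodel the connective tissue matrix: they make fibrillar collagens, the proteoglycans and glycoproteins that organise the fibrils, and the enzymes that cross-link or degrade them. Embryo fibroblasts in culture spread, pull on the dish through actin fibres and integrins, and divide. Amniotic fluid holds cells shed from the fetus and its membranes; the stem cells grown from it attach to plastic, usually carry surface markers of mesenchymal stromal cells and can form fat, bone or other lineages in culture. Both cultures would usually be counted as mesenchymal, with epithelial cells as the other main cell type of amniotic fluid.

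The PAFSC array stood apart from the other 5. In the deposited values its median was 0.69 and its SD 2.01 over the 23935 probe sets, while PEF had a median of -0.06 and an SD of 0.809 and the iPS arrays had SDs of 0.610 to 0.730. On PAFSC 2064 values lay below -3, against 41 on PEF. Across all probe sets the deposited values of PEF and PAFSC had a Pearson correlation of 0.0934 and a Spearman correlation of 0.0565, a description over features of 2 arrays that share a baseline for each probe set. The values are relative, so each probe set has its own zero. Values can be compared between arrays and not between genes, and neither the baseline nor the scaling between arrays is given in the sources used here. The log base was taken as 2. Because of the wide spread of PAFSC, all 6 arrays were quantile normalized, which gives each array the same distribution (SD 0.884), and all values below are normalized unless called deposited.

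Probe sets of the same gene gave a check on each array. Over 1543 genes with exactly 2 probe sets, the values of the pair correlated with Pearson r = 0.595 on PEF, 0.339 on PAFSC and 0.331 on PS24, and with 0.533 to 0.646 on the other iPS arrays. Control probe sets for GAPDH, a housekeeping enzyme, also disagreed on PAFSC: the 9 of them ran from -6.61 to 0.58 in deposited values, a range of 7.20, against a range of 0.184 on PEF. The 5' minus 3' difference of the controls on PAFSC was 3.66 for GAPDH and 2.72 for actin but -0.70 for EF1A. The average over the 3 genes was 1.90 on PAFSC, 0.04 on PEF and -1.90 on PS24. These differences used a single pair of control probe sets per gene. Other GAPDH pairs on PAFSC read 0.58 at the 5' end and 0.41 at the 3' end, and -0.61 and 0.32. Another actin pair read 2.41 and 2.16, so the difference on PAFSC depended on the pair used. Single probe sets on PAFSC thus repeated each other less well than those on PEF, and genes whose probe sets agree are described first.

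**Figure D1:**
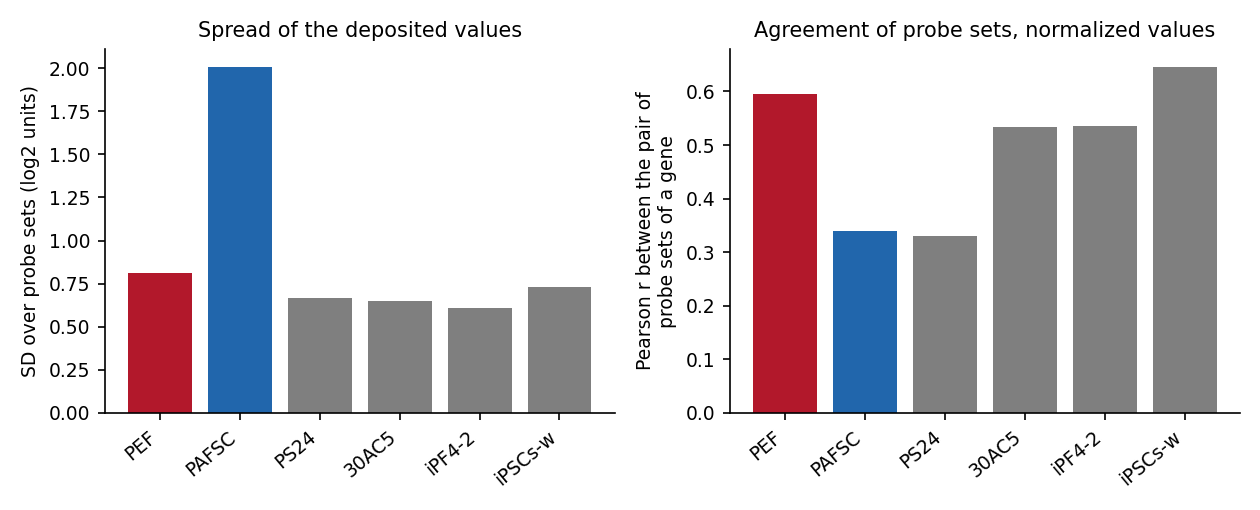
Bars show, for each of the 6 arrays, the SD of the deposited log2 values over 23935 probe sets (left) and the Pearson correlation between the 2 probe sets of 1543 genes after normalization (right). PAFSC has the widest spread, 2.01, and with PS24 the lowest correlation between probe sets of a gene.

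After normalization 1150 probe sets (4.8%) were at least 2 log2 units higher in PEF and 771 (3.22%) were higher in PAFSC. Of genes, 339 were past this limit in PEF, which is 5.01% of the 6765, and 152 were higher in PAFSC, which is 2.25%. The counts per gene list below are to be read against these shares. More genes lay past the limit on the PEF side, and the split depended on the scaling. It was 1224 against 963 in the deposited values, 1763 against 150 after median centring, and 622 against 88 after scaling each array by its median and median absolute deviation (MAD). The median difference over all genes was -0.0032 after quantile normalization, -0.24 in the deposited values and 0.51 after median centring. In 6 alternative settings of normalization and floor, none of the 339 genes had the opposite sign, and 131 of the 152 had it in none. Only the deposited values, median centring and median and MAD scaling could reverse these signs. The other settings, further quantile normalizations and a floor, cannot reverse the order of PEF and PAFSC on a probe set. The same limit holds for the list medians below, as far as their genes have a single probe set. In bulk RNA, fewer cells of a type and less RNA per cell cannot be told apart.

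The 4 iPS arrays showed on which side a difference lay. Over all genes PEF was above all 4 iPS arrays for 22.5% and below all 4 for 28%, and PAFSC was above all 4 for 22.6% and below all 4 for 25.8%. Among the 339 genes higher in PEF, 98 had PEF above all 4 iPS arrays with PAFSC inside their range, 105 had PEF inside the range with PAFSC below it, and 75 had PEF above and PAFSC below. Among the 152 higher in PAFSC, 57 had PEF below all iPS arrays with PAFSC inside the range, 35 had PEF below and PAFSC above, and 23 had PEF inside and PAFSC above. The 4 lines are different lines and not replicates.

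Where a gene had a further probe set, it followed the call unevenly. For 37 probe sets at least 2 higher in PEF with PEF above the iPS range and PAFSC inside it, the gene's other probe set lay on the same side in 29 (78.4%), with a median difference of 1.39. For 39 probe sets with PEF inside the range and PAFSC below it, the other lay on the same side in 17 (43.6%), with a median difference of -0.13. Among all 3086 probe sets of these genes the share was 61.9%. At the limit of 2 log2 units the shares were closer, 8 of the 37 (21.6%) and 7 of the 39 (17.9%). For 28 probe sets with PEF above the range and PAFSC below it, the other lay on the same side in 17 (60.7%), and for 29 probe sets higher in PAFSC with PEF inside and PAFSC above in 21 (72.4%). The differences between these shares were not tested.

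**Figure D2:**
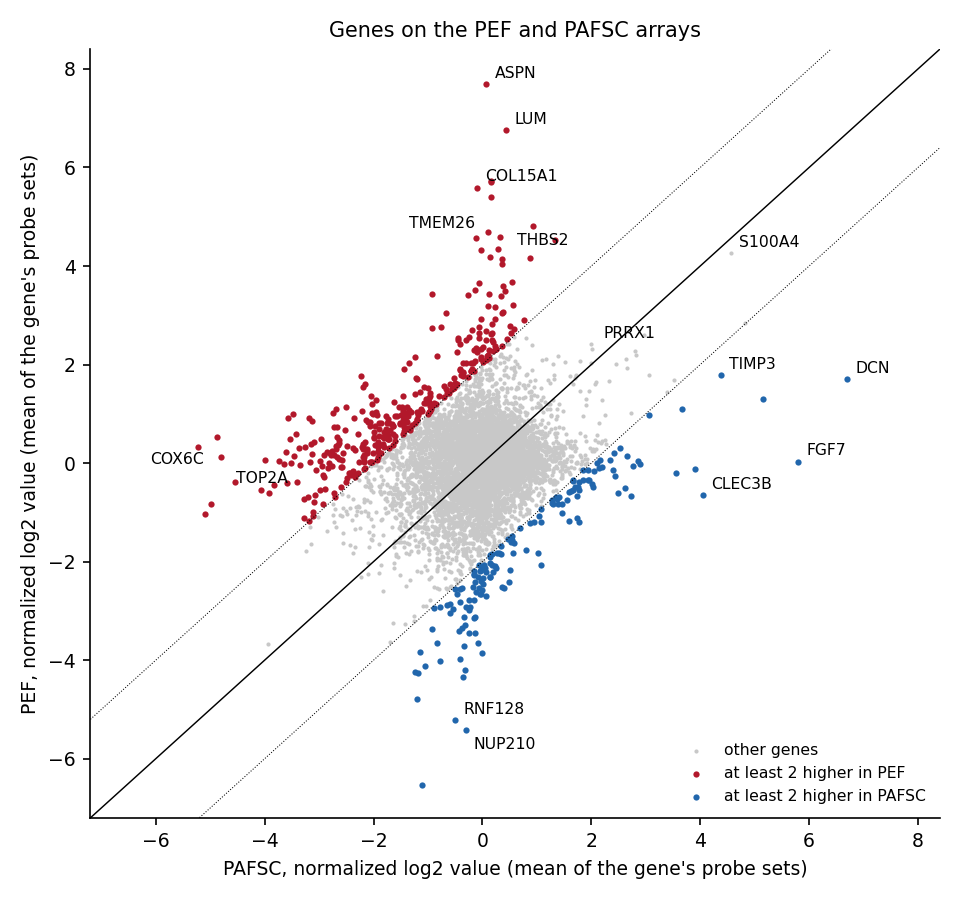
Each point is one of 6765 genes, with its normalized log2 value on PAFSC (x axis) and on PEF (y axis); the solid line marks equal values and the dotted lines a difference of 2 log2 units. The coloured points form arms along the axes: ASPN, LUM and COL15A1 are high on PEF and near 0 on PAFSC, COX6C and TOP2A near 0 on PEF and low on PAFSC, and DCN, FGF7 and CLEC3B high on PAFSC.

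Of the 2261 genes with several probe sets, 1214 (53.7%) had all of them on one side. Against the iPS arrays PEF gave shares of 59.0% to 66.9% by the same count. With every probe set past 2 log2 units, 15 genes (0.663%) were higher in PEF and 8 (0.354%) were higher in PAFSC; in the deposited values 13 of the 15 and 4 of the 8 met the same rule. SDC2, the last of the 15, had differences of 2.09 and 2.47, and DYNC1I2, just outside, had 1.99 and 2.58.

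TMEM26, a transmembrane protein, led the genes higher in PEF. Its probe sets read 5.13 and 4.24 on PEF and 0.04 and 0.17 on PAFSC, and their differences were 5.09 and 4.07. On the iPS arrays they lay between -1.26 and 0.96, so PEF was high and PAFSC was within the iPS range. DKK2, a secreted modulator of Wnt signalling, read 0.81 and 4.68 on PEF and -1.82 and -0.03 on PAFSC, differences of 2.62 and 4.71. FKBP14, a chaperone of the endoplasmic reticulum that assists collagen folding, was higher on all 3 of its probe sets, by 3.57, 3.43 and 3.16, with PEF at 1.96 to 2.06 and PAFSC at -1.61 to -1.09. SPOCK3, a secreted proteoglycan of the testican family, was 2.59 and 2.81 on PEF, -0.09 and -0.30 on PAFSC and -4.24 to -1.63 on the iPS arrays.

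NFIB, a transcription factor of the nuclear factor I family, differed by 3.13 and 2.46, and was as high on PS24 (3.05 and 3.09) as on PEF (2.69 and 2.29). STMN2, a microtubule regulator best known from neurons, differed by 3.46 and 2.44, and ME1, the cytosolic malic enzyme that supplies NADPH, by 2.74 and 2.51. By their names the ME1 probe sets stem from the same sequence cluster, so they may not be separate measurements. PRKAR1A, a regulatory subunit of protein kinase A, differed by 2.38 and 2.59, and PLXDC2, a transmembrane protein with a plexin domain, by 2.36 and 2.56. The uncharacterised locus LOC100621607 differed by 2.75 and 2.21. SEC23A, a coat protein of the vesicles that carry collagen out of the endoplasmic reticulum, CRYBG1 and the heparan sulfate proteoglycan SDC2 completed the group, with probe-set differences between 2.09 and 2.63. As for ME1, the probe sets of PRKAR1A, SEC23A and CRYBG1 and some of those of FKBP14 share a sequence cluster by name.

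For RPL31, a protein of the large ribosomal subunit, and EIF1AX, a translation initiation factor, the difference lay on PAFSC. RPL31 read 0.06 and -0.08 on PEF, -3.90 and -3.39 on PAFSC and -0.12 to 0.18 on the iPS arrays. Its probe sets were designed on the same sequence, so they are not separate measurements. EIF1AX read 0.41 and -0.54 on PEF and -2.30 and -3.23 on PAFSC, with the same difference of 2.70 on both. Over the alternative settings the mean differences fell as low as 0.96 for RPL31 and 0.91 for EIF1AX.

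Among the 8 genes higher in PAFSC, FGF7 and DCN were high on PAFSC itself. FGF7, also called keratinocyte growth factor, is secreted by mesenchymal cells and acts on epithelial cells. Its probe sets read 5.01 and 6.59 on PAFSC, -0.06 and 0.12 on PEF and -0.94 to 0.58 on the iPS arrays, with differences of -5.07 and -6.47. PAFSC alone was high, in both probe sets. By their names both probe sets of FGF7 stem from the same sequence cluster, so they may not be separate measurements. DCN encodes decorin, a proteoglycan that binds collagen fibrils. One of its probe sets read 5.71 on PAFSC and 3.48 on PEF, the other 7.70 and -0.07. Both were higher on PAFSC, by differences of -2.23 and -7.76, so they gave the same direction and sizes far apart. The mean difference of DCN was -4.99 here and turned to 0.62 under median and MAD scaling.

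The other 6 genes of this group were low on PEF. RNF128, a ubiquitin ligase, read -5.80 and -4.63 on PEF, -0.30 and -0.69 on PAFSC and -1.11 to 1.74 on the iPS arrays. DYRK3, a protein kinase, differed by -2.94 and -3.46, and GMPR, an enzyme of guanine nucleotide turnover, by -2.62 and -2.92. C14H10orf35 differed by -2.45 and -2.46, SPATA24 by -2.04 and -3.65, and ATP6V1C2, a subunit of the vacuolar proton pump, by -2.04 and -2.90. PEF was the lowest array on every probe set of these 6 genes, and PAFSC lay above all iPS arrays on both probe sets of SPATA24 alone. At their nearest to 0 over the alternative settings, the mean differences were -0.48 for RNF128, -0.73 for DYRK3 and -1.04 for GMPR. They were -1.11 for C14H10orf35, -1.99 for SPATA24 and -0.91 for ATP6V1C2. By their names the probe sets of DYRK3, GMPR, C14H10orf35 and SPATA24 stem from 1 sequence cluster per gene, so they may not be separate measurements.

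**Figure D3:**
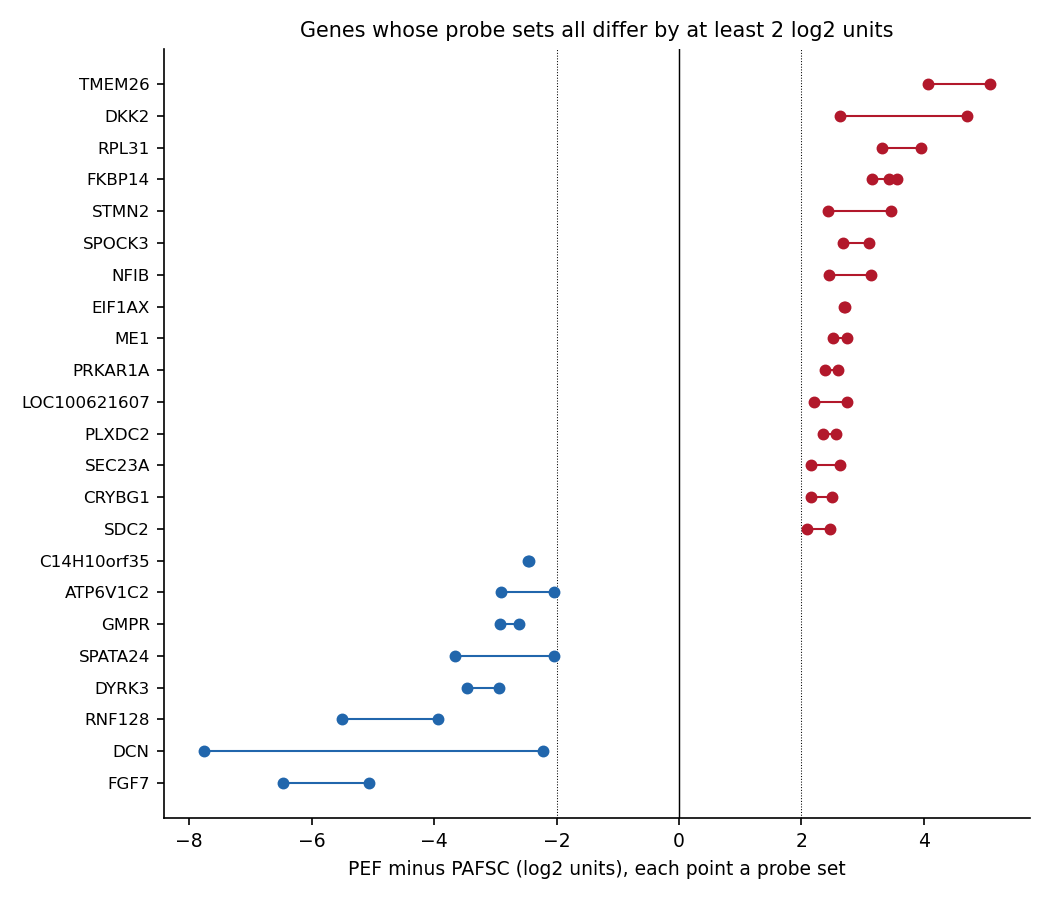
Each point is the PEF minus PAFSC difference of 1 probe set in log2 units, joined by a line within a gene, for the 15 genes higher in PEF (red) and the 8 higher in PAFSC (blue); dotted lines mark 2 log2 units. Most pairs lie close together, and DCN has the widest gap, from -7.76 to -2.23.

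Fibroblast and mesenchymal markers were higher in PEF as a group. Of 18 measured genes of 29 listed, 14 had a positive difference, 6 were at least 2 higher in PEF and 1 was higher in PAFSC, with a median of 1.19 against -0.0032 over all genes. The median stayed positive in all 6 alternative settings, from 0.67 to 4.08. PEF lay above all 4 iPS arrays for 16 of the 18 and PAFSC for 9, so more markers of the list stood out on PEF than on PAFSC.

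Small proteoglycans of the matrix gave the largest differences among the 339 genes higher in PEF. ASPN (asporin) read 7.70 on PEF and 0.07 on PAFSC, with the iPS lines PS24 at 0.20, 30AC5 at 0.71, iPF4-2 at -0.15 and iPSCs-w at -1.06. LUM (lumican) read 6.76 on PEF and 0.43 on PAFSC, with the iPS lines PS24 at -0.71, 30AC5 at 0.05, iPF4-2 at 4.06 and iPSCs-w at -1.09. PEF was the highest array for both, by 7.62 and 6.33 over PAFSC, and PAFSC lay inside the iPS range. DCN, of the same protein family, went the other way, as described. ASPN and LUM have a single probe set each and were chosen for naming after their values were seen.

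Other markers of the group repeated the direction on several probe sets. THY1, a surface glycoprotein of fibroblasts and stromal stem cells, was higher in PEF on all 3, by 1.01 to 4.60, at a mean of 3.07 against 0.39. POSTN (periostin), a matricellular protein, was higher on both, by 5.86 and 0.58. CDH11, the cadherin of mesenchymal cells, was higher on all 3, by 0.77 to 3.16. Single probe sets of DPT (dermatopontin), 3.67 against 0.54, and of the surface protease FAP, 2.12 against 0.15, went the same way.

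After quantile normalization some markers were high on both somatic arrays. S100A4, a calcium-binding protein of fibroblasts, was 4.26 in PEF, 4.56 in PAFSC and -1.17 to 0.96 in the iPS lines. PRRX1, a mesenchymal transcription factor, was 2.41 in PEF, 2.00 in PAFSC and -4.72 to -1.04 in the iPS lines. Both somatic arrays stood above all iPS arrays for these genes. The difference of S100A4, -0.30, took the opposite sign in 3 of the 6 alternative settings, where it ran up to 6.66, so neither a side nor a like level can be read from it. VIM (vimentin), the intermediate filament of mesenchymal cells, was 0.92 in PEF and 0.05 in PAFSC, against -0.29 to 0.83 in the iPS lines.

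The collagens as a list did not lean to one side. Of 15 measured, 7 were positive, 3 were at least 2 higher in PEF and 0 in PAFSC, and the median of -0.0084 changed sign in 2 of the 6 alternative settings. COL15A1, a collagen of basement membrane zones, read 5.59 on PEF and -0.10 on PAFSC, with the iPS lines PS24 at -1.37, 30AC5 at 0.62, iPF4-2 at -1.02 and iPSCs-w at -1.98. PEF was far above every other array. COL6A3, a chain of microfibrillar collagen VI, was 4.53 against 1.34, COL6A2 was 2.21 against 0.33, and COL4A2, a basement membrane chain, was 2.07 against -0.13.

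Fibrillar collagens differed less. COL1A2, a chain of type I collagen, was 1.79 in PEF and 1.31 in PAFSC, above all iPS arrays (-0.62 to 0.28) in both, but its probe sets gave differences of -0.07 and 1.03. COL3A1 was 0.23 against 0.65 and inside the iPS range of 0.13 to 1.02 on both arrays. COL5A2, a chain that nucleates fibrils, was 1.02 against 2.74, and both of its probe sets were higher in PAFSC. PAFSC lay above all iPS arrays for 8 of the 15 collagens and PEF for 9. COL1A1 was not analysed here.

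Genes that process collagen and those of matrix glycoproteins leaned to PEF. The processing list had 9 of 10 positive with a median of 1.05, and SERPINH1, the collagen chaperone of the endoplasmic reticulum, was 1.86 against -0.21. LOXL1, which cross-links elastin, was 2.43 in PEF and 0.48 in PAFSC, and -2.93 to -2.23 in the iPS lines. The glycoprotein list had 15 of 19 positive, 6 at least 2 higher in PEF and 0 in PAFSC, with a median of 1.00. The medians of both lists stayed positive in all 6 alternative settings.

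MGP, an inhibitor of matrix calcification, was 5.40 in PEF and 0.16 in PAFSC. SPP1 (osteopontin) was 4.33 against -0.02, THBS2, a thrombospondin, 4.59 against 0.33, and TNC (tenascin C) 4.82 against 0.93. For these 4 genes PEF lay above all iPS arrays. PAFSC lay inside the iPS range for MGP, SPP1 and TNC, and its THBS2 value was above their highest, 0.19.

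Matrix proteases and their inhibitors held genes high on either array. Of 19 measured, 3 were higher in PEF and 2 in PAFSC. The urokinase gene PLAU was 4.05 in PEF and 0.36 in PAFSC, and SERPINF1, a secreted serpin that blocks vessel growth, 3.04 against -0.67. CTSB, the lysosomal protease cathepsin B, was 1.09 against -2.69, with PAFSC below all iPS arrays. TIMP3, a matrix-bound inhibitor of metalloproteases, was higher in PAFSC on all 3 probe sets, by differences of -1.11, -1.86 and -4.83, at a mean of 4.38 against 1.78 in PEF and -0.29 to 0.16 in the iPS lines. Both somatic arrays were above the iPS lines for TIMP3, and its difference of -2.60 turned to 1.67 under median and MAD scaling. MMP9, a gelatinase, was 2.77 in PAFSC and -0.06 in PEF on its single probe set, and was chosen for naming after its value was seen.

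Contractile genes were higher in PEF for 15 of 20, with 4 at least 2 higher in PEF, 0 in PAFSC and a median of 0.98 that stayed positive in the 6 alternative settings. PEF lay above all iPS arrays for 17 of the 20 and PAFSC for 12. ACTA2, smooth muscle actin, was 2.17 in PEF, 0.50 in PAFSC and -6.54 to -0.59 in the iPS lines. PDLIM5, an adaptor of actin fibres, was higher in PEF on all 4 probe sets, by 1.13 to 2.92, and CALD1 (caldesmon), which regulates actin and myosin, on both. FHL2, a cofactor at focal adhesions, was 1.76 against -2.24, which lay inside the iPS range of -2.33 to 0.85. TPM2, a tropomyosin, and CNN1 (calponin) had means of 2.79 and 3.07 in PAFSC against 2.28 and 1.78 in PEF, above all iPS arrays in both, but the 4 probe sets of TPM2 did not all lie on one side. The somatic samples thus shared high contractile genes, with the larger values mostly on PEF.

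Adhesion receptors were higher in PEF for 14 of 19, with 5 at least 2 higher in PEF and 0 in PAFSC. ITGA8, an integrin subunit that binds fibronectin, was higher on all 3 probe sets, by 1.87 to 3.21, at 2.92 against 0.24 and -1.31 to -0.44 in the iPS lines. CDH13, a cadherin without a transmembrane part, was 2.82 against 0.17, and ITGB1, the common beta subunit, 1.15 against -1.38, with PAFSC below all iPS arrays.

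The surface genes used to recognise mesenchymal stem cells did not mark PAFSC above PEF. Of 14 measured, 10 were higher in PEF, with 3 at least 2 higher in PEF, 1 in PAFSC and a median of 0.87. VCAM1, an adhesion molecule, was 3.38 in PEF, 0.35 in PAFSC and -1.03 to 1.48 in the iPS lines. ENG (endoglin) was 0.63 and 0.42, with the sign of its small difference changed in 2 of 6 settings, and THY1 in PAFSC lay inside the iPS range of -0.99 to 0.57. LEPR, the leptin receptor, was the 1 member higher in PAFSC, at 1.66 against -0.35. KIT, a receptor by which amniotic fluid stem cells are often sorted, was 0.21 in PAFSC, -1.66 in PEF and -1.15 to 2.73 in the iPS lines. CD44 and NT5E, also used for this purpose, were not analysed here.

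**Figure D4:**
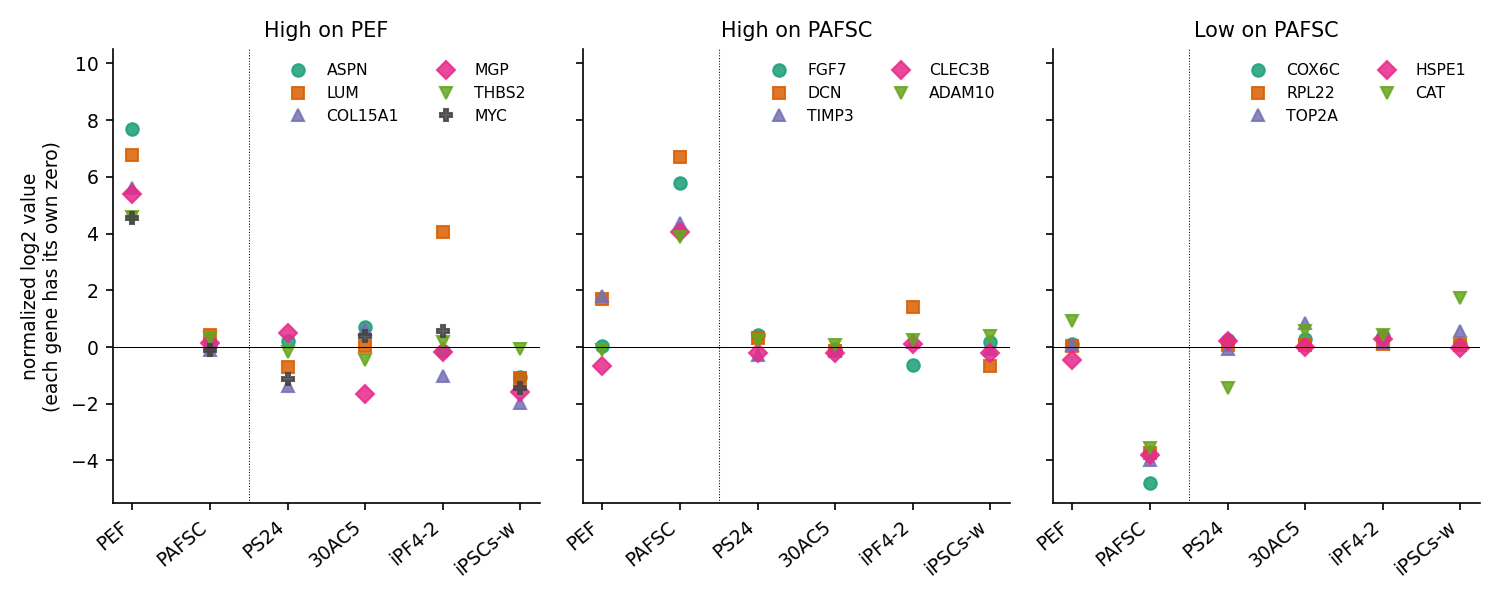
Points show the normalized log2 value of 16 genes on each of the 6 arrays, somatic arrays left of the dotted line; each gene has its own zero. The genes of the left panel are high on PEF alone except LUM, also 4.06 on iPF4-2; those of the middle panel are highest on PAFSC, with DCN and TIMP3 at 1.71 and 1.78 on PEF; those of the right panel lie at -3.58 or lower on PAFSC alone.

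Epithelial genes were higher in PAFSC for most members, as were most members of the lists of unrelated cell types described next. Of 19 measured, 6 had a positive difference, 2 were at least 2 higher in PAFSC and 0 in PEF, and the median of -0.98 stayed negative in all 6 settings, from -1.61 to -0.63. All 8 members with several probe sets had them on one side. CLDN7, a tight junction protein, was -3.45 in PEF, -0.14 in PAFSC and -0.23 to 0.85 in the iPS lines. EPCAM, an adhesion molecule of epithelia, was -2.39 in PEF, -0.02 in PAFSC and -1.67 to 5.59 in the iPS lines. CDH1, the epithelial cadherin, was -1.71 in PEF and 0.22 in PAFSC, both below the iPS range of 0.53 to 3.12. At their nearest to 0 over the alternative settings, the differences were -0.83 for CLDN7, -0.95 for EPCAM and -0.77 for CDH1. PEF was below all iPS arrays for 9 of the 19, against 28% of all genes, and PAFSC was above all of them for 3, against 22.6%. The simple keratin KRT18 was -0.95 against 0.12, and KRT8 was 0.72 against -0.16, both inside the iPS range. WFDC2, a secreted protease inhibitor, was higher in PAFSC on both probe sets, by differences of -1.50 and -2.12.

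Markers of blood, vessel and liver cells were also higher in PAFSC. Of 16 endothelial genes, 2 were positive with a median of -0.83. Of 20 leukocyte genes, 1 was positive with a median of -0.94, and of 18 erythroid and liver genes 3 were positive with a median of -0.82. Each list's median stayed negative in all 6 settings, yet single differences were small: 1 endothelial gene, 1 leukocyte gene and 0 erythroid and liver genes were at least 2 higher in PAFSC. SELE, an endothelial selectin, was 2.54 against 0.31, and CD3E, a T cell receptor subunit, 2.14 against -0.10.

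PAFSC lay above all iPS arrays for 10 of the 16 endothelial, 13 of the 20 leukocyte and 8 of the 18 erythroid and liver genes, against 22.6% over all genes. The mean of the lists on PAFSC was 0.97, 0.81 and 0.47, and on PEF 0.14, -0.11 and -0.14. On PAFSC the same shift thus ran through lists of 3 unrelated cell types, and the epithelial list had a like median of -0.98. The part of the array's own spread in these lists, the epithelial one included, was not tested. ERG, an endothelial transcription factor, was 4.82 in PAFSC and 2.85 in PEF against -1.15 to 0.58 in the iPS lines, so both somatic arrays were high; its difference of -1.97 was positive, at 4.03, under median and MAD scaling.

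Trophoblast and placental genes (14 measured, median -0.58) had 1 member past the limit on each side. PPAG3, a pregnancy-associated glycoprotein, was 2.61 in PAFSC and -0.50 in PEF, and PTGS2, the inducible prostaglandin synthase, was 2.93 in PEF and -0.03 in PAFSC. Pluripotency genes (8 measured) had a median of -0.59, and POU5F1, which encodes OCT4, read 0.24 on PAFSC and -0.67 on PEF, with the iPS lines PS24 at 0.15, 30AC5 at -0.05, iPF4-2 at 3.99 and iPSCs-w at 3.82. PAFSC lay far below the 2 lines with high POU5F1. The member higher in PEF was MYC, a growth-promoting transcription factor, at 4.56 in PEF, -0.12 in PAFSC and -1.46 to 0.56 in the iPS lines.

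Muscle genes held a few large differences. Of 20 measured, 3 were higher in PEF, 0 in PAFSC, and the median of 0.09 changed sign in 2 of the 6 settings. ACTC1, cardiac actin, was 3.43 in PEF and -0.93 in PAFSC. MYL1, a myosin light chain of fast muscle, was 3.19 against 0.11, and NEB (nebulin) 2.69 against 0.07. PEF lay above all iPS arrays for 11 of the 20. Neural genes had 3 of 15 higher in PEF and a median of 0.50 that was negative in 1 setting; beside STMN2 they were CRABP2, a retinoic acid binding protein, 2.33 against -0.03, and the imprinted NNAT, 2.52 against 0.45. Imprinted genes as a list had 3 of 17 higher in PEF, 0 in PAFSC and a median of 0.47.

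Genes of the early response to serum and stress were higher in PEF for 16 of 21, with 6 at least 2 higher in PEF and 0 in PAFSC, and a median of 0.99. Besides MYC, NFKBIA, the inhibitor of NF-kappaB, was 1.90 against -1.44. DUSP1, a phosphatase of MAP kinases, was 2.42 against -0.42, and IER3, an early response gene, 3.04 against 0.36. The median ran from 0.06 to 2.65 over the alternative settings.

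A few chemokines differed widely between PEF and PAFSC, although the list of cytokines and chemokines had 14 of 29 positive and a median of -0.02. CCL2, which attracts monocytes, read 5.71 on PEF and 0.16 on PAFSC, with the iPS lines PS24 at -1.47, 30AC5 at 1.24, iPF4-2 at -1.65 and iPSCs-w at 1.36. CXCL8, which attracts neutrophils, was 5.73 in PEF, 0.17 in PAFSC and 4.40 in 30AC5. AMCF-II, a pig chemokine of the same family, was higher on all 3 probe sets, by 1.54 to 5.60, at 4.19 against 0.14. PEF was the highest array for these 3 genes. CXCL8 and AMCF-II were named after their values were seen. The list holds CXCL8 under its older symbol IL8, so CXCL8 was not among the 29. CXCL2 was 4.14 in PEF and 0.37 in PAFSC but higher still, 7.17, in PS24. The members higher in PAFSC were the colony-stimulating factors CSF3, 1.95 against -0.33, and CSF2, 1.78 against -0.38.

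Complement and acute phase genes had 12 of 21 positive and a median of 0.27, which was negative, at -0.62, in 1 of the 6 settings. PTX3, a pattern recognition protein, was higher on both probe sets, by 1.59 and 5.00, and the secreted chaperone CLU was 3.51 against -0.14. The complement protease C1S was 2.64 against -0.07. These were the 3 of the 21 at least 2 higher in PEF, with 0 in PAFSC. Interferon-induced genes had 17 of 22 positive with a median of 0.74, and their 3 members past the limit were SAMHD1, a nucleotide hydrolase, IRF1, a transcription factor, and EIF2AK2, a kinase activated by double-stranded RNA. SAMHD1 was -2.94 in PAFSC and -0.05 in PEF, so its difference lay on PAFSC, while IRF1 was high on PEF, 1.79 against -0.40. The list of MHC class I and antigen processing genes had 1 of 16 past the limit on each side and a median of 0.68. Those members were the proteasome-related genes PSME1, with a difference of 2.13, and PSMB8, with -2.08. The measured SLA genes and B2M were not past it.

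In the lists of TGF-beta and BMP, Wnt and Notch, and growth factor genes, DKK2 and CYR61 were at least 2 higher in PEF and FGF7 in PAFSC. Over all genes the shares were 5.01% in PEF and 2.25% in PAFSC, so counts this small do not set these lists apart. None of 23 TGF-beta and BMP pathway genes passed 2 log2 units, and TGFB2, a growth factor of that pathway, came nearest with 1.97, higher on all 4 probe sets by 1.32 to 2.72. In the Wnt and Notch list 11 of 15 were positive with a median of 0.75. CTNNB1, the Wnt effector beta-catenin, was higher in PEF on all 5 probe sets, by 0.43 to 1.93, at 0.57 against -0.83. Among 25 growth factors and receptors, CYR61, a matricellular protein induced by serum, was 2.26 against -0.47, and EGFR was higher in PEF by 1.63 and 1.65 on its probe sets.

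Genes of mitochondria and of protein synthesis were mostly lower on PAFSC than on PEF. Of 53 oxidative phosphorylation genes, 35 were positive, 5 were at least 2 higher in PEF, 0 in PAFSC, and the median was 0.38. PAFSC lay below all iPS arrays for 40 of the 53 and PEF for 32, against 25.8% and 28% of all genes, so many of these genes were low on both somatic arrays. COX6C, of the terminal oxidase of the respiratory chain, read 0.12 on PEF and -4.80 on PAFSC, with the iPS lines PS24 at 0.24, 30AC5 at 0.29, iPF4-2 at 0.38 and iPSCs-w at 0.10. UQCRB, of the cytochrome bc1 complex, was -0.61 against -3.92, ATP5F1, of the ATP synthase, -0.09 against -2.83, and NDUFC1, of complex I, -0.48 against -2.60. PAFSC was the low array in each case. At their lowest over the alternative settings, the differences were 1.09 for COX6C, 0.36 for UQCRB, 0.88 for ATP5F1 and 0.49 for NDUFC1. As given above, probe sets with PEF inside the iPS range and PAFSC below it were often not followed by the gene's other probe set. It lay on the same side in 43.6%, against 61.9% among all.

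Ribosomal protein genes were also mostly lower on PAFSC than on PEF, with 51 of 59 positive and a median of 0.53. At least 2 higher in PEF were 3 (5.08%), close to the 5.01% of all genes and with RPL31 among them, and 0 were in PAFSC. PAFSC lay below all iPS arrays for 48 of the 59 and PEF for 17, against 25.8% and 28% of all genes. Unlike the oxidative phosphorylation genes, these genes were thus often low on PAFSC but not on PEF. RPL22 was 0.05 in PEF and -3.73 in PAFSC, with the iPS lines between 0.06 and 0.10, and RPL29 was 0.16 against -2.17. Their differences were 1.02 and 1.13 at the lowest over the alternative settings. Of 25 members with several probe sets, 13 had them all on one side. Translation factors had 24 of 28 positive with a median of 0.44, and proteasome genes 22 of 30 with a median of 0.45. GAPDH controls of one transcript ran from -6.61 to 0.58 on the same array, and the part of such disagreement in these low values was not tested.

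Several cell division genes were low on PAFSC. Of 33 measured, 6 were at least 2 higher in PEF and 1 in PAFSC, with 20 positive and a median of 0.18. TOP2A, the mitotic topoisomerase, was 0.06 in PEF, -3.99 in PAFSC and -0.06 to 0.86 in the iPS lines. MAD2L1, of the spindle checkpoint, was -1.03 against -5.09, PCNA, the replication clamp, -0.05 against -3.35, and BIRC5 (survivin) 0.26 against -2.34. At their lowest over the alternative settings, the differences were 1.04 for TOP2A, 0 for MAD2L1, 0.92 for PCNA and 1.23 for BIRC5. CCNA2, cyclin A, was the 1 member higher in PAFSC, by a difference of -2.04, named because it was the single one. PAFSC lay below all iPS arrays for 20 of the 33 and PEF for 17, against 25.8% and 28% of all genes, so both somatic arrays read lower than the iPS lines for many of these genes.

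Inhibitors of the cell cycle and p53 targets had 14 of 19 positive, 3 at least 2 higher in PEF and 1 in PAFSC, and a median of 0.70 that stayed positive in all 6 settings. CDKN1A, which encodes p21, was 1.73 in PEF and -0.51 in PAFSC, and CCNG1, a target of p53, was 0.37 against -2.66. GADD45A, a stress-induced growth arrest gene, was 1.91 against -0.18. CDKN2B, which encodes p15, was the reverse, at -1.20 in PEF, 1.76 in PAFSC and -0.29 to 0.08 in the iPS lines: PEF lay below and PAFSC above all iPS arrays. The list names CDKN2A and not its product P14ARF, so P14ARF was not counted and was named after its value was seen. P14ARF was -3.66 in PEF and -0.08 in PAFSC, a difference that was -0.89 at its nearest to 0 over the alternative settings. Each of these named genes had a single probe set.

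Heat shock and antioxidant genes were higher in PEF for most members. HSP90AA1, the cytosolic chaperone HSP90, was higher on all 5 probe sets, by 1.83 to 3.93, with a mean of 0.82 in PEF and -1.72 in PAFSC and 0.31 to 0.97 in the iPS lines. HSPE1, the mitochondrial co-chaperone, was -0.45 against -3.82. In the heat shock list 25 of 30 were positive with a median of 0.68, and 3 lay past the limit in PEF and 1 in PAFSC. Of 28 oxidative stress genes, 5 were higher in PEF and 1 in PAFSC, with a median of 0.98. CAT (catalase), which breaks down hydrogen peroxide, was 0.91 against -3.58, PRDX3, a mitochondrial peroxidase, -0.54 against -4.06, and NQO1, a quinone reductase, 1.01 against -2.75. PAFSC was the array that stood apart for each of these. At their lowest over the alternative settings, the differences were 0.53 for HSPE1, 1.88 for CAT, 0.43 for PRDX3 and 1.98 for NQO1. TXNIP, an inhibitor of thioredoxin, was -3.64 in PEF and -0.83 in PAFSC, and its difference of -2.82 turned to 0.28 under median centring.

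The lists of cholesterol and fatty acid synthesis and of glycolysis had small medians, 0.14 and 0.18, with large differences in some members. In cholesterol and fatty acid synthesis 4 of 20 (20%) were at least 2 higher in PEF, against 5.01% of all genes, and 0 in PAFSC. CYP51, a sterol demethylase, was 0.93 against -3.19, and HMGCS1, an early enzyme of the pathway, 0.39 against -2.20. In glycolysis 1 of 19 (5.26%) lay past the limit on each side, against 5.01% of all genes in PEF and 2.25% in PAFSC. LDHB, a lactate dehydrogenase subunit, was -0.70 in PEF and -2.71 in PAFSC, and the lactate exporter SLC16A3 was -1.63 against 0.59. The LDHB difference was 0.27 at its lowest over the alternative settings. SLC2A5, the fructose transporter, was -4.34 in PEF and -0.35 in PAFSC, the largest difference among 18 transporters. ALPL, an alkaline phosphatase of bone and of pluripotent cells, was -3.28 in PEF, -0.32 in PAFSC and 1.13 to 3.33 in the iPS lines. At their nearest to 0 over the alternative settings, the differences were -0.62 for SLC2A5 and -0.65 for ALPL.

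**Figure D5:**
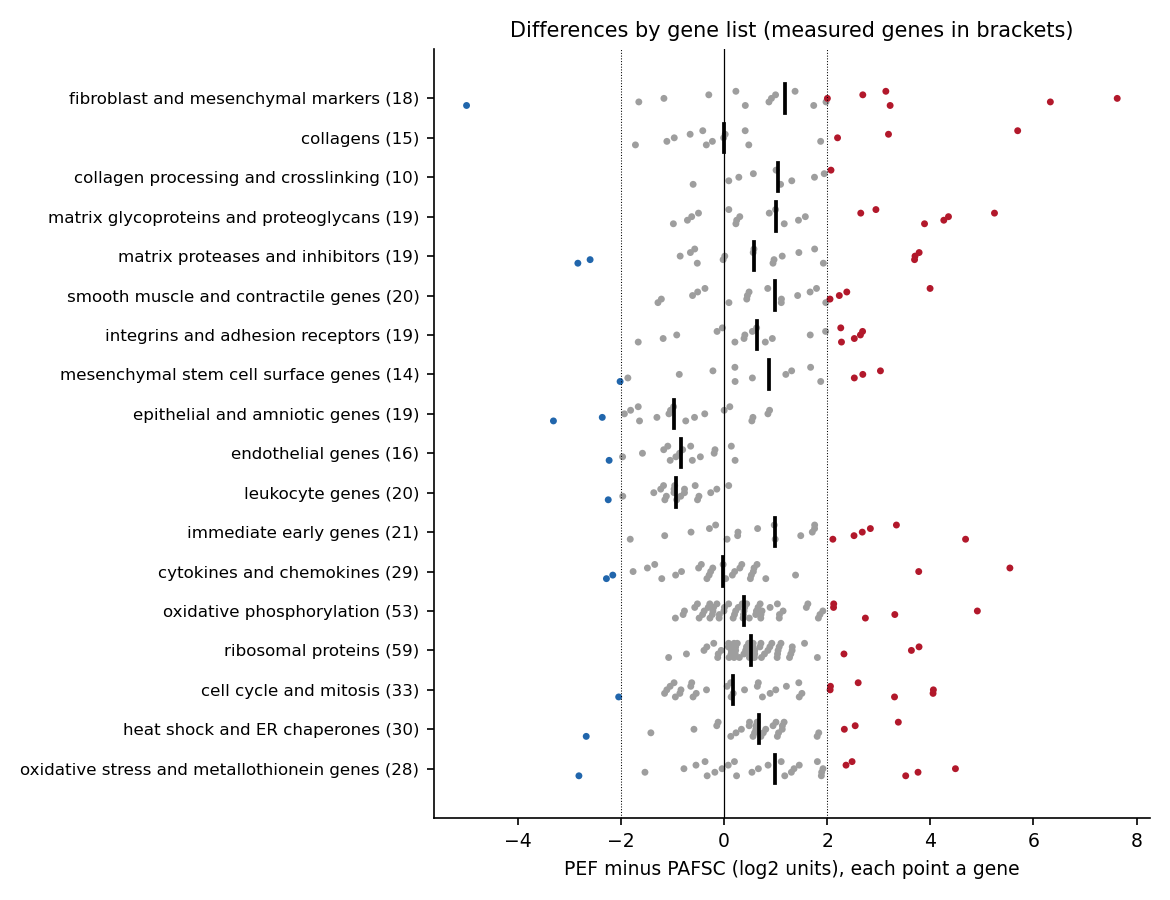
Each point is the PEF minus PAFSC difference of 1 measured gene in log2 units for 18 lists, red at 2 or more and blue at -2 or less (all probe sets on one side); the black bar is the list's median. Fibroblast, matrix and contractile lists lie to the right with far points up to 7.62, and epithelial, endothelial and leukocyte lists to the left with medians between -0.98 and -0.83.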

How the data were processed

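The series' value table holds values that the authors deposited, read here as log2, for 24123 probe sets on 6 arrays, with 0 missing. Total RNA was labelled and hybridised as Affymetrix prescribes, per the labels' protocols. The summary method, normalization, log base and baseline were not given in the sources used here. Zero is not the median of these arrays, since that median was within 1e-04 of 0 for 3.51% of probe sets.

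Arrays were quantile normalized with Python 3.11.15, numpy 2.4.6 and pandas 2.3.3, after control and reporter probe sets were left out; figures used matplotlib 3.10.9. The counting was checked on simulated data. GEO's platform annotation named genes: 10069 probe sets had 1 symbol, 198 several and 13668 none. By gene ID, RefSeq's gene table held 9961 of them, with 0 differing symbols. No test was made, with 1 array per somatic group.

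Genes and the 40 gene lists (1222 genes, 804 measured) were chosen with earlier results of these data known. Named are the genes with at least 2 probe sets all past 2 log2 units (12 per direction, by the probe set nearest 0), up to 4 members per list, and usual markers; all others named, such as FAP, KIT, COL5A2 and CNN1, were chosen after their values were seen. Alternatives were the deposited values, median centring, median and MAD scaling, quantile normalization of PEF and PAFSC alone or with a target without PAFSC, a floor at the 10th percentile, limits of 1 and 3 log2 units, and other rules for genes with several probe sets.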

Additional observations from a re-analysis of the deposited data

How the results depend on the processing

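Counts of large differences depended on the scaling far more than directions did, though the quantile and floor settings could not reverse the direction of a probe set. In the order probe sets, genes and genes with agreeing probe sets, at least 2 log2 units higher in PEF and in PAFSC, the counts of 1150 and 771, 339 and 152, and 15 and 8 became 3903 and 4795, 1224 and 963, and 81 and 137 in the deposited values. They were 5551, 1763 and 144 for PEF, and 4 agreeing genes for PAFSC, after median centring. Median and MAD scaling gave 2263 and 342, 622 and 88, and 70 and 4. Quantile normalization of PEF and PAFSC alone gave 3334 and 2829, 982 and 630, and 68 and 46. A quantile target without PAFSC gave 584 and 436, 169 and 70, and 4 agreeing genes for PAFSC, and a floor at the 10th percentile 600 and 416, 146 and 59, and 2. A limit of 1 log2 unit gave 4222 and 3985, 1218 and 913, and 111 and 92, and a limit of 3 gave 299 and 137, 93 and 25, and 3 and 2. Of the 339 genes higher in PEF, 325 were also counted in the deposited values, 339 after median centring and 288 under MAD scaling; of the 152, 107, 74 and 83.

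The positions against the iPS arrays moved too. Genes higher in PEF with PEF above all iPS arrays (188) and with PAFSC below all (203) numbered 386 and 1112 in the deposited values, 595 and 1593 after median centring, 475 for the former under MAD scaling, 772 and 730 with the 2 arrays alone, 101 and 83 with the target without PAFSC, and 120 and 23 with the floor. Genes higher in PAFSC with PEF below all (114) and PAFSC above all (63) numbered 507 and 902 in the deposited values, 133 for the latter after median centring, 4 for the latter under MAD scaling, 568 and 325, 47 and 32, and 32 for the former with the floor.

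Named differences past 2 log2 units by the list or agreement rule that took the opposite sign were HSPA2 (0.20 in the deposited values and 0.95 after median centring), TXNIP (0.28 after median centring), and DCN (0.62) and TIMP3 (1.67) under MAD scaling. Other named differences that did so, among those followed over the settings, were ERG (4.03) and SHAS2 (0.38) under MAD scaling and COL1A2 (-0.42) in the deposited values. So did SRY (0.35) after median centring, and the small differences of ENG in 2 settings and of S100A4 in 3. The cause was not tested. The signs of COL5A2, CNN1, TPM2, KIT, FAP and PRRX1 were not followed over the settings. Of 40 list medians, 31 kept their sign in all 6 settings of normalization and floor. For genes with a single probe set the quantile and floor settings could not reverse a sign. Of settings chosen after seeing the data, normalization without PS24 kept the counts of probe sets, genes and agreeing genes within 1.5 times, and leaving out probe sets that can match several transcripts did so for the counts of genes, agreeing genes and iPS positions. No paired analysis was possible because each somatic culture has 1 array and the labels give no replicate numbers. The number of arrays limits the precision.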

Other observations

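Further large differences outside the lists, chosen after their values were seen and each from a single probe set, were of the same kinds. NUP210, a nuclear pore protein, was -5.41 in PEF, -0.31 in PAFSC and -0.40 to 0.69 in the iPS lines, so that PEF alone was low. Its difference of -5.10 was -0.66 at its nearest to 0 over the alternative settings. CLEC3B (tetranectin), a plasminogen-binding protein, was 4.05 in PAFSC, -0.65 in PEF and -0.22 to 0.09 in the iPS lines. ADAM10, a membrane protease that sheds surface proteins, was 3.90 in PAFSC, -0.12 in PEF and 0.08 to 0.39 in the iPS lines. SHAS2, a hyaluronan synthase, was 5.16 in PAFSC and 1.30 in PEF, a difference of -3.86 that turned to 0.38 under median and MAD scaling. RBM3, a cold-induced RNA-binding protein, was 0.33 in PEF and -5.23 in PAFSC, and SYPL1, a vesicle membrane protein, 0.53 and -4.87, with PAFSC below all iPS arrays for both. SCG2, a secretogranin of secretory granules, was 4.35 in PEF, 0.29 in PAFSC and -0.28 to 0.40 in the iPS lines.

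EIF1AY, a translation factor named for its gene on the Y chromosome, read -6.54 on PEF and -1.12 on PAFSC, with the iPS lines PS24 at -0.10, 30AC5 at -6.54, iPF4-2 at 0.46 and iPSCs-w at -5.56. PEF, 30AC5 and iPSCs-w were low and the other 3 arrays higher. The labels do not give the sex of the animals, and SRY, the sex-determining gene, read -0.25 in PEF and -0.04 in PAFSC.

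Lists not described above had 0 or 1 gene past the limit on each side, so their counts do not set them apart from all genes. Of all genes, 5.01% were at least 2 higher in PEF and 2.25% in PAFSC. Of 7 HOX and 6 kidney and mesoderm progenitor genes, 0 passed 2 log2 units on either side. Among 15 hypoxia targets the 1 past the limit was ANKRD37, at -2.98 in PEF and -0.24 in PAFSC. Its difference was -0.73 at its nearest to 0 over the alternative settings. The 20 bone, cartilage and fat genes had a median of -0.38, with SPP1 past the limit in PEF and ALPL in PAFSC.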
